A study of Mus musculus with 2 samples.

Results

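Fatty acid oxidation genes were examined in leukocytes of brown adipose tissue (BAT), the fat depot that burns lipid to produce heat. The set held 33 of the 32285 genes in the count tables, chosen by name from mitochondrial and peroxisomal beta-oxidation and from acyl-CoA metabolism. CD45+ Dapi- cells, that is living leukocytes, were sorted from BAT and captured in 1 droplet library per condition. All mice were 16-week-old C57Bl/6 males of the AdipoQ-CreERT2 ATGLfl/fl genotype, in which tamoxifen lets Cre act in adipocytes and delete ATGL, the enzyme that starts triglyceride breakdown, encoded by Pnpla2. The control library came from mice injected with vehicle, and the Adipo KO library from mice injected with tamoxifen, every 2 days for 1 week and then rested for 2 weeks. Only the Adipo KO mice received tamoxifen, so the drug and the deletion cannot be told apart. How many mice were pooled for a library is not given in the sources used here. With 1 library per condition no difference has a replicate check, no p-value was computed, and every interval covers counting error only.

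In beta-oxidation, a fatty acid is first activated to its acyl-CoA by a synthetase and carried into the mitochondrion by the carnitine system. Acyl-CoA dehydrogenases, a hydratase, a hydroxyacyl dehydrogenase and a thiolase then shorten the chain by an acetyl-CoA at each turn, and the electron transfer flavoprotein passes electrons from the dehydrogenases to the respiratory chain. Peroxisomes shorten very long and branched chains with enzymes of their own. In macrophages this pathway is known for its use in alternative activation.

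Of 2597 control and 2381 Adipo KO barcodes, 2279 and 2016 were kept, with medians of 3678 and 3942 transcript counts (unique molecular identifiers, UMIs) per cell, and 4 kept barcodes occurred in both libraries. The kept cells fell into 18 clusters, and those that met marker rules were called macrophage-like, monocyte-like and so on, since the deposited files carry no annotation. Ptprc, which encodes CD45, stood at 1050.3 and 939 counts per 1000000 UMIs (CPM) in the control and Adipo KO libraries. Pnpla2 stood at 37.1 and 42.2 CPM in these leukocytes, where the adipocyte Cre is not meant to act, so it does not check the labels. Over all kept cells the 33 genes summed to 1020 CPM in the control and 1261 CPM in the Adipo KO library.

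Cell classes differed in how much of their RNA came from these genes. Values below are CPM of UMIs summed over all cells of a class in a library, with exact 95% Poisson intervals. Macrophage-like cells had the highest sum in both libraries, at 1294 CPM (1199 to 1394, 125 cells) in the control and 1547 CPM (1507 to 1589, 412 cells) in the Adipo KO library. Neutrophil-like cells had the lowest, at 493 CPM from 314 cells and 608 CPM from 173 cells. Natural killer (NK) cell-like cells stood at 1199 and 1271 CPM and monocyte-like cells at 1161 and 1179 CPM. Dendritic cell-like cells followed at 966 and 1098 CPM, T cell-like cells at 780 and 970 CPM and B cell-like cells at 744 and 901 CPM. These 7 classes leave out clusters named type 2 innate lymphoid cell-like (66 cells) and plasma cell-like (20 cells), and the unnamed clusters. The order of the 7 classes was the same in both libraries, although NK cell-like and monocyte-like cells of the control differed by less than counting error (ratio 1.03, 0.98 to 1.09). Intervals of other neighbours in this order overlapped too. Among them were macrophage-like and NK cell-like cells (1143 to 1257 CPM) of the control, and T cell-like and B cell-like cells of both libraries.

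**Figure D1:**
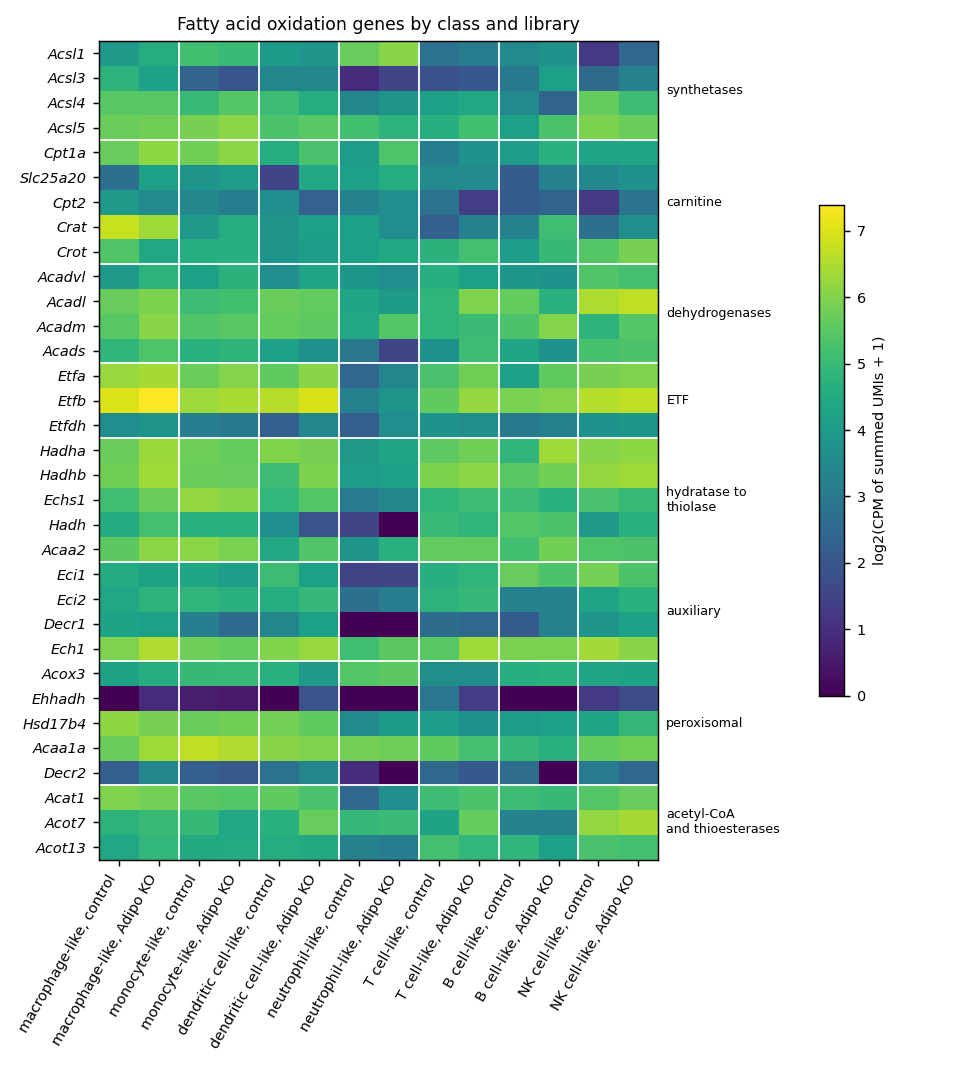
Level of each of the 33 genes (rows, ordered by pathway step) in 7 cell classes of both libraries (columns), as log2 of CPM of summed UMIs plus 1, with brighter colours for higher levels. The neutrophil-like columns are dark for the electron transfer flavoprotein and the hydratase to thiolase rows, and Crat is brightest in macrophage-like cells.

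In macrophage-like cells, the enzymes that shorten the chain inside the mitochondrion were higher in the Adipo KO library. The summed synthetases and the summed carnitine system were not. The carnitine sum mixes ratios of 1.37 for Cpt1a and 3.13 for Slc25a20 with 0.70 for Cpt2, 0.74 for Crat and 0.49 for Crot. It therefore does not describe transport into the mitochondrion alone. The hydratase to thiolase step stood at 208 CPM in the control and 315 CPM in the Adipo KO library, a ratio of 1.52 (95% conditional binomial interval 1.246 to 1.86). The acyl-CoA dehydrogenases stood at 137 and 194 CPM, a ratio of 1.42 (1.11 to 1.83). The electron transfer flavoprotein stood at 213 and 264 CPM, a ratio of 1.24 (1.02 to 1.52). The intervals of these 3 of 8 steps lay above 1, and no step's interval lay below 1. All genes tested in these cells had a median ratio of 1.09. The lower limit for the electron transfer flavoprotein (1.02) lay below that median. The ratio was 1.01 (0.79 to 1.31) for the synthetases, 0.90 (0.74 to 1.10) for the carnitine system and 1.16 (0.92 to 1.49) for peroxisomal oxidation. It was 1.22 (0.95 to 1.61) for the auxiliary enzymes of unsaturated fatty acids and 1.07 (0.81 to 1.44) for the acetyl-CoA thiolase with the thioesterases.

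The sum of all 33 genes was 1.20 times as high in Adipo KO macrophage-like cells (1.10 to 1.30). A gene was counted as higher or lower when its CPM differed by at least 1.5-fold, among genes with at least 50 UMIs over both libraries in the class. By this rule 8 of 30 genes were higher (Acsl1, Slc25a20, Acadvl, Acadm, Echs1, Hadh, Acaa2 and Acaa1a) and 1 was lower (Crot), of which Acsl1, Echs1 and Hadh changed direction under other settings, and of all 6745 genes tested 19.3% were higher and 8.76% lower. The other 3 genes, Cpt2, Ehhadh and Decr2, had too few UMIs. The median ratio was 1.30 over the 30 genes and 1.09 over all genes tested, a shift of 0.12 on the log2 scale. Relative to that shift the summed ratio was 1.10. The Adipo KO class held 3529733 UMIs against 534038 in the control, so a gene passed the minimum mainly through its Adipo KO counts, and Slc25a20 and Etfdh would have missed it had both libraries been at the control level. The median cell had 6354.5 against 3330 UMIs. After each cell was thinned to 1000 UMIs, the summed ratio was 1.24, the hydratase to thiolase ratio 1.59 and the dehydrogenase ratio 1.02.

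**Figure D2:**
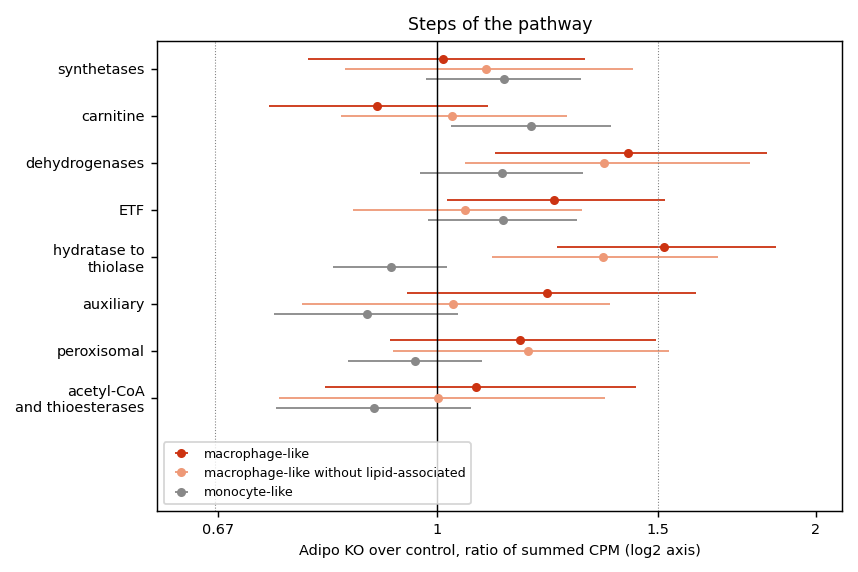
Ratio of Adipo KO to control CPM for 8 pathway steps (log2 axis, points, with 95% conditional binomial intervals as lines) in macrophage-like cells, macrophage-like cells without the lipid-associated subset, and monocyte-like cells. The hydratase to thiolase step has macrophage-like intervals above 1 with and without the subset, and a monocyte-like ratio of 0.92.

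Among the acyl-CoA synthetases, none showed a difference beyond counting error in macrophage-like cells. Acsl4, which prefers arachidonic acid, stood at 43.1 CPM in the control and 43.6 CPM in the Adipo KO library. Acsl5, of mitochondria and endoplasmic reticulum, stood at 52.4 and 54.1 CPM. Acsl1, the main long-chain synthetase of fat and heart, stood at 15.0 and 22.7 CPM from 8 and 80 UMIs, a ratio of 1.51 (0.73 to 3.62) that turned to 0.82 without the resident subset and to 0.84 at a mitochondrial limit of 2%. Acsl3, found on nascent lipid droplets, stood at 26.2 and 17.8 CPM from 14 and 63 UMIs.

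Members of the carnitine system went in different directions. Cpt1a, the rate-limiting carnitine palmitoyltransferase of the outer mitochondrial membrane, stood at 50.6 CPM in the control and 69.4 CPM in the Adipo KO library, a ratio of 1.37 (0.92 to 2.13). Slc25a20, the carnitine-acylcarnitine carrier of the inner membrane, was 17.6 CPM in the Adipo KO library from 62 UMIs, and the control gave 3 UMIs (5.62 CPM), a ratio of 3.13 (1.02 to 15.6). Cpt2, which reforms the acyl-CoA inside, had 8 control and 37 Adipo KO UMIs.

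Both transferases of shorter acyl groups had ratios below 1, and that of Crot passed 1.5-fold. Crat, carnitine acetyltransferase, stood at 109 CPM in the control and 80.5 CPM in the Adipo KO library, a ratio of 0.74 (0.56 to 1.00), and in resident cells alone it stood at 52.3 and 61.7 CPM. Crot, the peroxisomal carnitine octanoyltransferase, stood at 41.2 CPM from 22 UMIs and 20.1 CPM from 71 UMIs, a ratio of 0.49 (0.30 to 0.83). Crot was the only gene of the 30 that was lower by 1.5-fold, and its ratio lay between 0.39 and 0.68 under the 18 alternative settings tried.

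All 4 acyl-CoA dehydrogenases, which take the first electrons from chains of different length, had ratios above 1, beside 59.5% of all 6745 genes tested. Acadm, the medium-chain enzyme, stood at 43.1 CPM in the control and 66.6 CPM in the Adipo KO library, a ratio of 1.55 (1.01 to 2.49). Acadvl, the very long-chain enzyme, stood at 15.0 and 26.6 CPM, a ratio of 1.78 (0.87 to 4.24). Only the Acadm interval lay above 1. Acadl, the long-chain enzyme, stood at 50.6 and 60.6 CPM, and Acads, the short-chain enzyme, at 28.1 and 39.9 CPM. Of the electron transfer flavoprotein, the beta subunit Etfb stood at 127 and 167 CPM, a ratio of 1.31 (1.02 to 1.71). The alpha subunit Etfa stood at 74.9 and 83.9 CPM, and Etfdh, which hands the electrons to ubiquinone, had 6 control and 47 Adipo KO UMIs.

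All 5 genes of the hydratase to thiolase step had ratios between 1.48 and 1.61, beside a median of 1.09 over all genes tested. Hadha and Hadhb encode the alpha and beta subunits of the mitochondrial trifunctional protein, which performs the last 3 reactions of a turn on long chains. Hadha stood at 52.4 CPM in the control and 77.3 CPM in the Adipo KO library, a ratio of 1.48 (1.00 to 2.26). Hadhb stood at 54.3 and 80.5 CPM, a ratio of 1.48 (1.01 to 2.25). Both genes thus had the same ratio. They lie head to head on chromosome 5 in GRCm38, Hadha on the minus strand at chr5:30118304-30155162 and Hadhb on the plus strand at chr5:30155248-30184593. The 85 bases between them, chr5:30155163-30155247 on the plus strand, are shown because both genes start from its 2 ends (RefSeq promoter sequence of Hadhb, GRCm38.p6).
Hadha-Hadhb: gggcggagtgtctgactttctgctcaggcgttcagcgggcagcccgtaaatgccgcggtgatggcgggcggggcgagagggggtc

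Enzymes of the same step for shorter chains gave similar ratios. Echs1, the short-chain enoyl-CoA hydratase, stood at 33.7 CPM in the control and 52.4 CPM in the Adipo KO library, a ratio of 1.56 (0.96 to 2.68). Hadh, the hydroxyacyl-CoA dehydrogenase of medium and short chains, stood at 22.5 and 36.3 CPM, a ratio of 1.61 (0.89 to 3.21). Acaa2, the mitochondrial thiolase, stood at 44.9 and 68.6 CPM, a ratio of 1.53 (1.00 to 2.43). After thinning to 1000 UMIs per cell, which leaves fewer UMIs, the ratio was 0.87 for Echs1 and 0.67 for Hadh, below 1.

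Of the auxiliary enzymes, which prepare unsaturated chains for the spiral, Ech1, a dienoyl-CoA isomerase, stood at 61.8 CPM in the control and 89.8 CPM in the Adipo KO library, a ratio of 1.45 (1.01 to 2.15). Eci2, an enoyl-CoA isomerase, stood at 20.6 and 26.3 CPM. Eci1, the other isomerase, had 12 and 64 UMIs, and Decr1, the dienoyl-CoA reductase, had 10 and 60 UMIs. Only Ech1 of these 4 had an interval above 1. In peroxisomes, Acaa1a, the thiolase, stood at 52.4 and 79.3 CPM, a ratio of 1.51 (1.02 to 2.32), whereas Hsd17b4, the bifunctional enzyme that precedes it, stood at 71.2 and 57.2 CPM, a ratio of 0.80 (0.57 to 1.17). Acox3, an acyl-CoA oxidase, had 10 and 82 UMIs, Decr2, the peroxisomal dienoyl-CoA reductase, 2 and 33, and Ehhadh, the other bifunctional enzyme, 0 and 3.

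The remaining 3 genes act on short products and free acyl-CoA, and none of their intervals left 1 out. Acat1, the acetoacetyl-CoA thiolase of ketone and isoleucine metabolism, stood at 61.8 CPM in the control and 56.4 CPM in the Adipo KO library. The thioesterases, which release free fatty acid from acyl-CoA, stood at 26.2 and 31.4 CPM for Acot7 and at 20.6 and 28.9 CPM for Acot13.

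**Figure D3:**
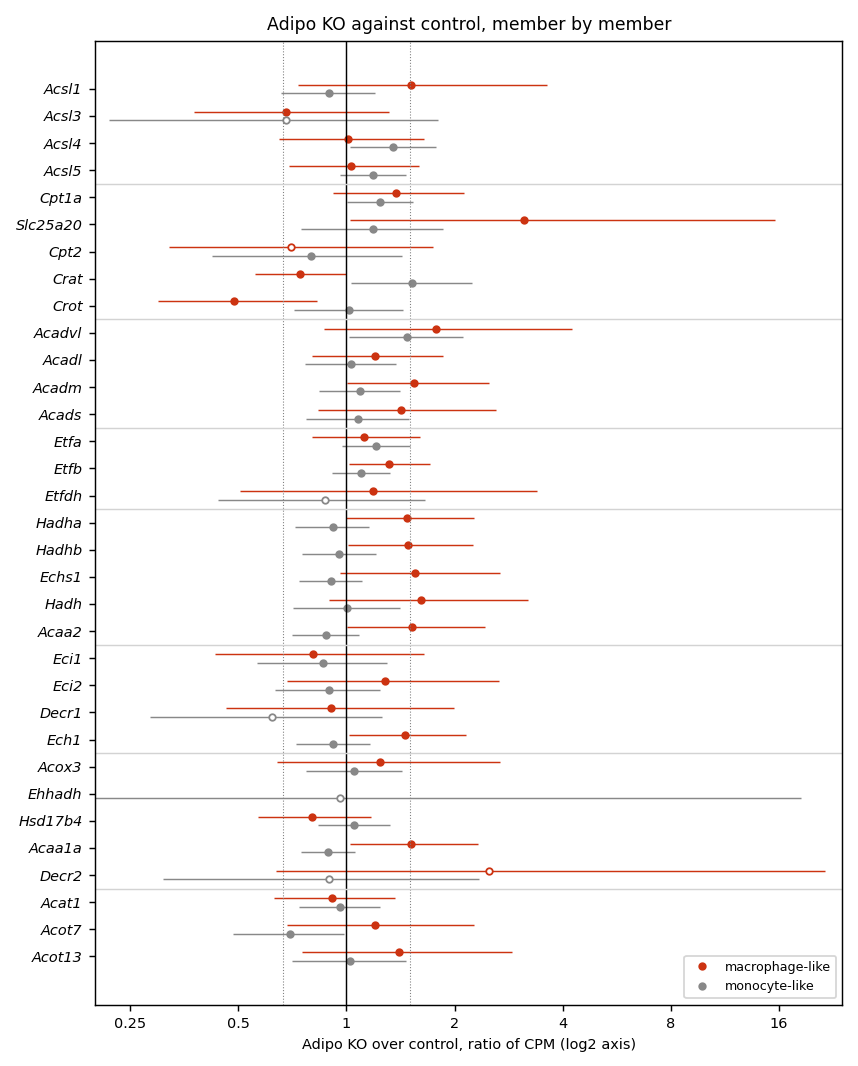
Ratio of Adipo KO to control CPM for each of the 33 genes (log2 axis) in macrophage-like and monocyte-like cells, with 95% conditional binomial intervals as lines, open circles for genes under 50 UMIs and dotted lines at 1.5-fold in each direction. Ehhadh has no macrophage-like point, since the control had 0 UMIs. The hydratase to thiolase genes lie to the right of 1 in macrophage-like cells and near 1 in monocyte-like cells.

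Monocyte-like cells, with 768 control and 484 Adipo KO cells, showed little of this. The sum of the 33 genes had a ratio of 1.02 (0.97 to 1.07), and the hydratase to thiolase step stood at 269.7 and 248 CPM, a ratio of 0.92 (0.83 to 1.02). Of 28 genes tested, 1 was higher, beside 7.4% of all 7442 genes, and 0 were lower, beside 2.26%. The 1 gene was Crat, at 15.1 CPM in the control and 23.0 CPM in the Adipo KO library, a ratio of 1.52 (1.03 to 2.24). Crat thus had a ratio above 1 in monocyte-like cells and below 1 (0.74) over all macrophage-like cells. Under the alternative settings tried, its ratio ran from 0.58 to 1.27 in macrophage-like cells, on both sides of 1. In monocyte-like cells it ran from 1.32 to 1.53. The carnitine step stood at 117 and 138 CPM (1.19, 1.03 to 1.38), with Cpt1a at 54.9 and 68.1 CPM. Acadvl stood at 17.5 and 25.7 CPM (1.47, 1.02 to 2.11). Whether macrophage-like and monocyte-like cells differed in their Adipo KO to control ratios was not tested.

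Macrophage-like cells fell into 3 subsets named from marker lists, resident (Lyve1, Folr2), matrix (Fn1, Ecm1) and lipid-associated (Gpnmb, Trem2). The control held 64, 49 and 12 of these cells and the Adipo KO library 140, 174 and 98. The 33 genes summed to 1255 CPM in control and 1471 CPM in Adipo KO resident cells, and to 1397 and 1556 CPM in matrix cells. They summed to 1595 CPM in Adipo KO lipid-associated cells. The 12 control lipid-associated cells gave 17 UMIs of these genes in all, so no ratio is given for them.

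With the lipid-associated cells left out of both libraries, the summed ratio was 1.14 (1.05 to 1.24). The dehydrogenases then stood at 138 and 188 CPM (1.36, 1.05 to 1.77), and the hydratase to thiolase step at 217 and 295 CPM (1.36, 1.11 to 1.67). The electron transfer flavoprotein then had a ratio of 1.05 (0.86 to 1.30). Of 26 genes tested, 3 were higher (Acsl1, Slc25a20 and Acadvl), beside 15.3% of all 5754 genes, and 1 was lower (Crot), beside 4.29%. The 3 higher genes had 8, 3 and 7 control UMIs and reached the minimum of 50 only through their Adipo KO counts, so their number is a description only. The count past 1.5-fold was 4 without the lipid-associated cells and 9 with them.

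In resident cells, 5 of 15 genes were higher (Cpt1a, Acadl, Acadm, Hadha and Hadh), beside 17.1% of all 3096 genes, and 0 were lower, beside 5.39%. Acadl, Hadha and Hadh, with 7, 7 and 6 control UMIs, reached the minimum of 50 only through Adipo KO counts, so the number of higher genes is in part set by the minimum. Hadha stood at 30.5 CPM from 7 UMIs in control and 84.4 CPM from 78 UMIs in Adipo KO resident cells, a ratio of 2.77 (1.28 to 7.11). In matrix cells 2 of 18 genes were higher (Acsl4 and Acaa2), beside 18.2% of all 3836 genes, and 0 were lower, beside 4.67%. Acsl4, with 8 control UMIs, also reached the minimum only through Adipo KO counts. Hadha stood at 72.4 and 61.4 CPM there. Acaa2 stood at 39.8 and 64.3 CPM in matrix cells (1.62, 0.86 to 3.35).

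Inside the Adipo KO library, lipid-associated cells had about the same sum of these genes as resident and matrix cells together (1595 against 1522 CPM, ratio 1.05, 0.99 to 1.11) but a different make-up by step. The auxiliary enzymes stood at 194 against 128 CPM (1.51, 1.27 to 1.80) and the electron transfer flavoprotein at 322 against 233 CPM (1.38, 1.21 to 1.57). Genes of the hydratase to thiolase step stood at 353 against 295 CPM (1.20, 1.06 to 1.35). In contrast, the carnitine system stood at 132 against 234 CPM (0.56, 0.47 to 0.67) and the synthetases at 110 against 154 CPM (0.72, 0.58 to 0.88). The dehydrogenases had a ratio of 1.09 (0.93 to 1.27). The synthetases and the carnitine system, which includes Crat and Crot, thus took a smaller part in lipid-associated cells. The auxiliary and electron transfer genes took a larger one.

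Of 29 genes tested in this comparison, 6 were higher, beside 16.4% of all 6361 genes, and 7 lower, beside 28.6%. Among the higher, Acot13 stood at 51.7 CPM in lipid-associated against 16.6 CPM in resident and matrix cells (3.12, 2.06 to 4.80). Ech1 stood at 125 against 70.7 CPM (1.77, 1.41 to 2.22) and Etfb at 223 against 137 CPM (1.63, 1.38 to 1.92). Acads, Echs1 and Eci1 were also higher. Among the lower, Crat stood at 38.8 against 103 CPM (0.38, 0.27 to 0.52). Acsl3 stood at 7.28 against 23.5 CPM (0.31, 0.13 to 0.63) and Crot at 11.3 against 24.9 CPM (0.46, 0.23 to 0.83). Acsl1, Slc25a20, Acox3 and Acat1 were also lower. Acsl3, Slc25a20 and Crot, with 9, 14 and 14 lipid-associated UMIs, reached the UMI minimum only through resident and matrix counts. The number of lower genes is therefore in part set by the minimum.

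Crat was higher in matrix than in resident cells in both libraries. It stood at 156 CPM in matrix against 52.3 CPM in resident cells of the control (2.98, 1.54 to 6.20). In the Adipo KO library it stood at 131 against 61.7 CPM (2.12, 1.57 to 2.91). The control allowed 2 genes to be tested, of which 1 was higher, beside 20.3% of 1204 genes, and 0 were lower, beside 18.3%. The higher gene, Crat, with 12 resident UMIs, reached the UMI minimum only through matrix counts, so this number is a description only. Of 25 genes tested in the Adipo KO library, 3 were higher (Crat, Acox3 and Acot7), beside 14.7% of 5153 genes, and 3 lower (Acsl1, Hadh and Acat1), beside 18%. Acot7 stood at 47.5 against 9.74 CPM there (4.88, 2.42 to 11.1). In that library Acox3 and Acot7, with 19 and 9 resident UMIs, reached the UMI minimum only through matrix counts. Acsl1, with 24 matrix UMIs, reached it only through resident counts. The numbers of higher and lower genes are therefore in part set by the minimum.

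**Figure D4:**
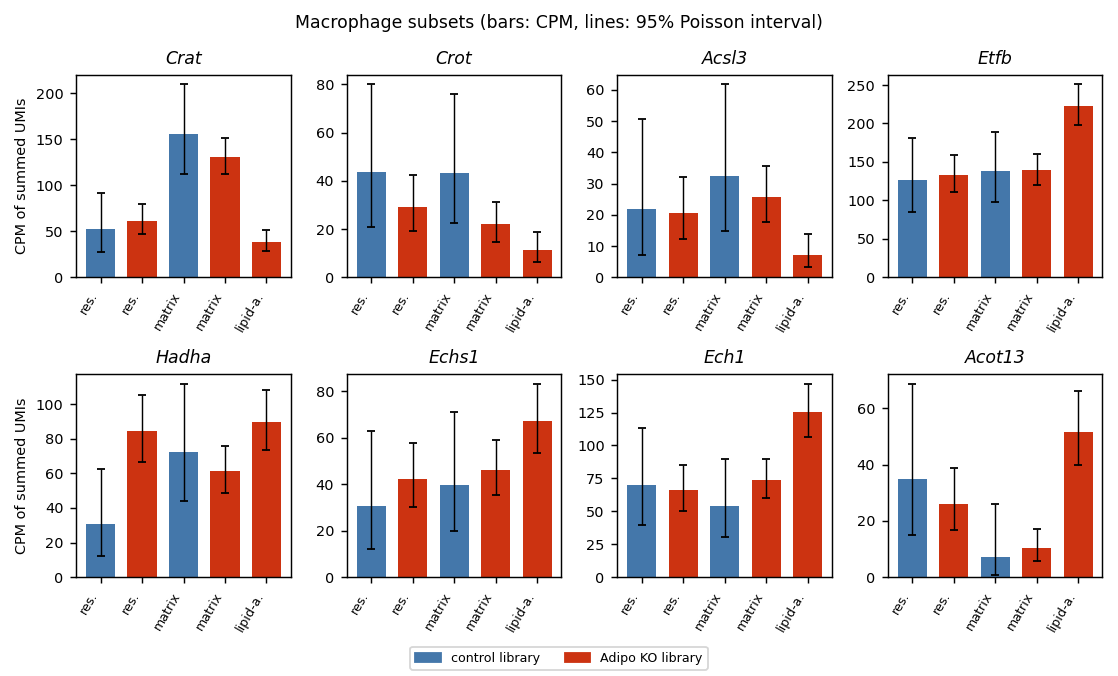
CPM of summed UMIs of 8 genes (bars, axes from 0, lines for 95% Poisson intervals) in resident (res.), matrix and lipid-associated (lipid-a.) macrophage-like cells, with control in blue and Adipo KO in red. Control lipid-associated cells are not drawn because they gave too few UMIs. Crat is highest in matrix cells of both libraries and lowest in Adipo KO lipid-associated cells, where Etfb, Ech1 and Acot13 are highest.

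Macrophage-like and monocyte-like cells of the same library were then compared within each library. In both libraries 3 of 27 genes were higher in macrophage-like cells (Crat, Acadl and Etfb), beside 8.62% of all 6674 genes tested in both, and 0 were lower in both, beside 12.9%. Crat had the widest gap of these, at 109 against 15.1 CPM in the control (7.19, 4.95 to 10.4) and 80.5 against 23.0 CPM in the Adipo KO library (3.50, 2.58 to 4.83). Etfb stood at 127 against 78.6 CPM (1.62, 1.23 to 2.11) and at 167 against 86.4 CPM (1.93, 1.64 to 2.29). Acsl3, whose control UMIs were too few for the test, stood at 26.2 against 4.07 CPM in the control and at 17.8 against 2.76 CPM in the Adipo KO library (6.47, 2.81 to 18.3).

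In the control library alone 4 of 27 genes were higher in macrophage-like cells, beside 17.2% of 6776 genes, and 6 lower, beside 25.5%. The lower genes were Acsl1, Slc25a20, Echs1, Acaa2, Acox3 and Acaa1a. Of these, Slc25a20, with 3 macrophage-like UMIs, reached the minimum only through monocyte-like counts. Echs1 stood at 33.7 against 72.1 CPM (0.47, 0.27 to 0.75) and Acaa1a at 52.4 against 102 CPM (0.51, 0.34 to 0.75). In the Adipo KO library 11 of 31 genes were higher in macrophage-like cells, beside 18.9% of 7657 genes, and 0 lower, beside 18.1%. Of the 11, Acsl3, Etfdh and Decr1, with 6, 15 and 11 monocyte-like UMIs, reached the minimum only through macrophage-like counts. There Echs1 stood at 52.4 against 65.3 CPM and Acaa1a at 79.3 against 91.0 CPM. Decr1 stood at 17.0 against 5.06 CPM (3.36, 1.75 to 7.09) and Hadha at 77.3 against 48.7 CPM (1.59, 1.26 to 2.00).

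By step, the hydratase to thiolase ratio of macrophage-like to monocyte-like cells was 0.77 (0.63 to 0.94) in the control and 1.27 (1.15 to 1.41) in the Adipo KO library, on opposite sides of 1. The carnitine ratio was 1.90 (1.54 to 2.32) and 1.43 (1.248 to 1.64), and that of the electron transfer flavoprotein 1.54 (1.24 to 1.88) and 1.69 (1.49 to 1.91). Peroxisomal genes stood at 0.78 (0.61 to 0.98) and 0.94 (0.83 to 1.07).

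**Figure D5:**
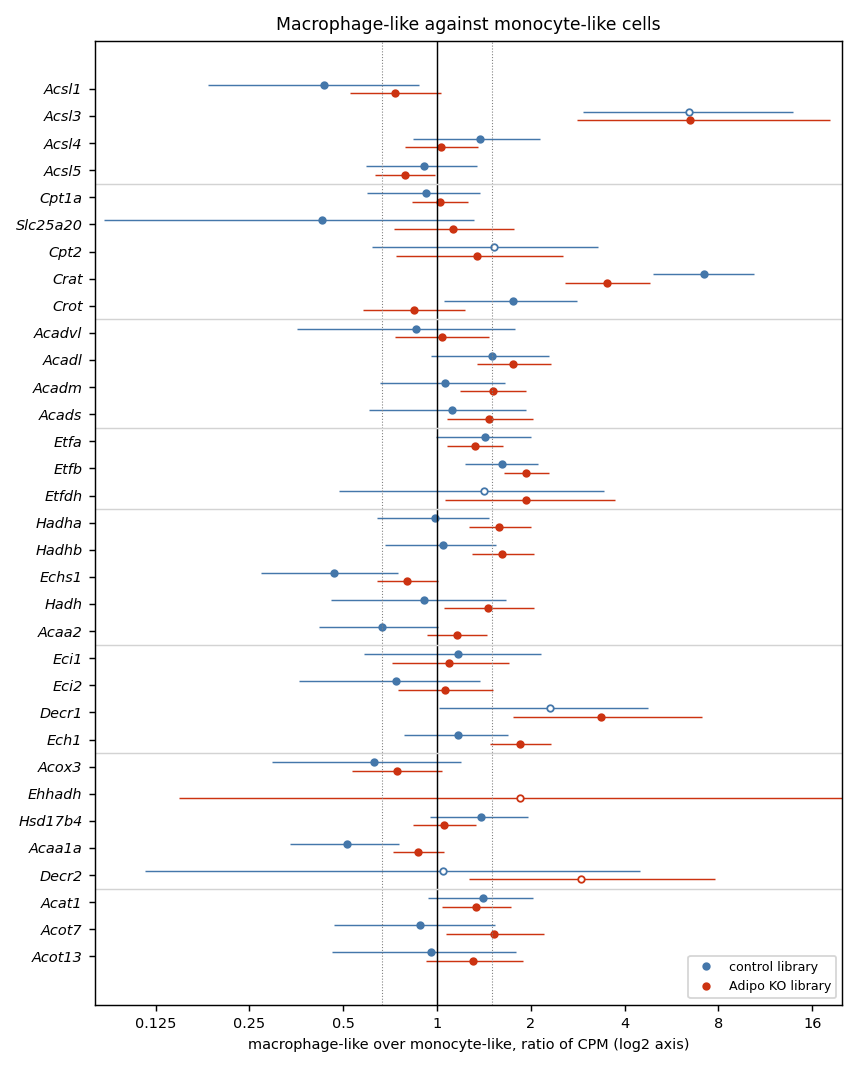
Ratio of CPM in macrophage-like to monocyte-like cells for each of the 33 genes (log2 axis) in the control (blue) and Adipo KO (red) library, with 95% conditional binomial intervals as lines and open circles for genes under 50 UMIs. Crat and Acsl3 lie far to the right in both libraries, and Echs1 and Acaa1a lie left of 1 with higher ratios in the Adipo KO library.

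Among monocyte-like subsets, Ly6C-low cells had more of the synthetases and less of the auxiliary enzymes, peroxisomal genes and thioesterases than Ly6C-high cells. Synthetases stood at 173 against 118 CPM in the control (1.47, 1.18 to 1.82) and 218 against 114 CPM in the Adipo KO library (1.92, 1.48 to 2.49). Acsl4 stood at 49.7 against 24.4 CPM in the control and 86.6 against 14.0 CPM in the Adipo KO library, and Acsl5 at 86.6 against 52.0 CPM and 95.6 against 59.7 CPM. Thus the Acsl4 ratio of the subsets was 2.04 in the control and 6.19 in the Adipo KO library. The auxiliary enzymes had ratios of 0.54 (0.38 to 0.73) and 0.43 (0.28 to 0.65), the peroxisomal genes 0.67 (0.54 to 0.84) and 0.71 (0.54 to 0.92), and the acetyl-CoA thiolase with the thioesterases 0.50 (0.35 to 0.70) and 0.43 (0.27 to 0.66). Of 25 genes tested in the control, 2 were higher in Ly6C-low cells, beside 23.8% of 5673 genes, and 9 lower, beside 20.7%. Of 17 tested in the Adipo KO library, 3 were higher, beside 26.5% of 4119 genes, and 5 lower, beside 20.1%. In that library Acsl4 reached the minimum of 50 UMIs only through Ly6C-low counts, so the number of higher genes is in part set by the minimum.

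Between the libraries, Ly6C-high cells had 1 of 26 genes higher in the Adipo KO library (Crat), beside 7.93% of 5975 genes, and 1 lower (Acsl4), beside 3.21%. Crat stood at 14.2 and 24.3 CPM and Acsl4 at 24.4 and 14.0 CPM. In Ly6C-low cells 1 of 11 genes was higher, beside 8.93% of 3404 genes, and 0 were lower, beside 2.91%. That gene was Acsl4, at 49.7 and 86.6 CPM (1.74, 1.10 to 2.77), the opposite direction to Ly6C-high cells. In intermediate cells 0 of 15 genes were higher, beside 8.43% of 3560 genes, and 1 was lower (Acot7, at 37.7 and 21.9 CPM), beside 8.51%. Acsl4 in Ly6C-high cells and Acot7 in intermediate cells reached the minimum of 50 UMIs only through control counts.

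NK cell-like cells held the highest level of Crot, Acadvl, Acadl, Eci1, Acot7 and Acot13 among the 7 classes in both libraries. The control rank of Acot13 lay within counting error, at 37.2 CPM against 36.0 CPM (27.2 to 46.7) in T cell-like cells. Acadl stood at 88.5 and 101 CPM and Acot7 at 71.7 and 82.7 CPM, against 27.6 and 60.9 CPM and 18.6 and 49.3 CPM in T cell-like cells. Compared with T cell-like cells, 6 of 22 genes were higher in both libraries (Acsl4, Acsl5, Crot, Acadvl, Acadl and Acot7), beside 31.3% of 5303 genes, and 0 lower, beside 4.92%. Acadvl, with 22 T cell-like UMIs in the Adipo KO library, reached the minimum there only through NK cell-like counts. Compared with monocyte-like cells, the dehydrogenases were higher, with ratios of 1.65 (1.42 to 1.92) and 1.66 (1.40 to 1.96), and peroxisomal genes lower, with ratios of 0.51 (0.42 to 0.61) and 0.60 (0.49 to 0.73). In both libraries 5 of 27 genes were higher than in monocyte-like cells, beside 29% of 6691 genes, and 8 lower, beside 19.5%. Of the 8, Acsl1, at 1.41 and 4.60 CPM in NK cell-like cells, reached the minimum only through monocyte-like counts.

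Neutrophil-like cells had low levels of most genes and their highest ranks for 3. Acsl1 stood at 49.7 and 66.3 CPM, Acox3 at 41.3 and 45.5 CPM and Slc25a20 at 16.9 and 22.7 CPM, each the highest of the 7 classes in both libraries. The Slc25a20 rank lay within counting error, with 12 UMIs (11.8 to 39.7 CPM) in Adipo KO neutrophil-like cells and 15 UMIs (11.3 to 33.3 CPM) in dendritic cell-like cells. The electron transfer flavoprotein stood at 16.9 and 34.1 CPM, against 139 and 157 CPM in monocyte-like cells (0.12, 0.07 to 0.19, and 0.22, 0.13 to 0.35). The hydratase to thiolase ratio was 0.20 (0.15 to 0.26) and 0.28 (0.20 to 0.40). In both libraries 17 of 25 genes were lower than in monocyte-like cells, beside 45.7% of 5457 genes, and 0 higher, beside 17.2%. The median of all genes tested was also below 1, at 0.54 and 0.69. Several of the 17 genes reached the minimum of 50 UMIs only through monocyte-like counts. Among them were Etfa, Hadh and Acat1, with 5, 2 and 5 neutrophil-like UMIs in the control. The number of lower genes is therefore in part set by the minimum.

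The class with the highest level was the same in both libraries for 18 genes, with no regard to overlap of intervals. Besides the NK and neutrophil genes, Acsl3, Crat, Etfa, Etfb, Hsd17b4 and Acat1 were highest in macrophage-like cells, Echs1 and Acaa1a in monocyte-like cells and Hadh in B cell-like cells.

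Between the libraries, T cell-like cells had 5 of 21 genes higher in the Adipo KO library (Acadl, Acads, Etfb, Ech1 and Acot7), beside 17% of all 4957 genes, and 0 lower, beside 2.56%. Acadl stood at 27.6 and 60.9 CPM (2.20, 1.50 to 3.27), Acads at 12.9 and 33.1 CPM (2.58, 1.48 to 4.63) and Acot7 at 18.6 and 49.3 CPM (2.65, 1.68 to 4.26). The 33 genes had a summed ratio of 1.24 (1.15 to 1.35) and a median ratio of 1.17, and the median over all genes tested was also 1.17. In NK cell-like cells 3 of 24 genes were higher (Acadm, Hadh and Hsd17b4), beside 5.92% of 5931 genes, and 0 lower, beside 2.19%, with a summed ratio of 1.06 (0.99 to 1.13). In dendritic cell-like cells 2 of 12 were higher (Hadhb and Acot7), beside 13.3% of 2661 genes, and 0 lower, beside 3.57%. Both, with 17 and 13 control UMIs, reached the minimum of 50 only through Adipo KO counts, so their number is a description only. The same holds for Acads in T cell-like cells, with 20 control UMIs. In neutrophil-like cells 0 of 5 genes tested were past 1.5-fold, beside 21.5% of 2974 genes higher and 3.36% lower. No gene of the 33 reached 50 UMIs in B cell-like cells.

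Other genes of the pathway were counted by the same rule in macrophage-like cells. Of 39 other oxidation genes, 17 had enough UMIs, 4 were higher in the Adipo KO library, beside 19.3% of all genes tested, and 1 was lower, beside 8.76%. Hsd17b10, a mitochondrial hydroxyacyl dehydrogenase, stood at 28.1 and 47.0 CPM, Mecr, of mitochondrial fatty acid synthesis, at 7.49 and 13.3 CPM, Mcee, of propionyl-CoA disposal, at 18.7 and 29.2 CPM, and the thioesterase Acot9 at 16.9 and 29.2 CPM. Of these 4 genes, Mecr reached the UMI minimum only through its Adipo KO counts, so their number is in part set by the minimum. Acadsb, of branched chains, was lower, at 39.3 and 23.5 CPM. Cpt1b, the muscle and brown fat form of carnitine palmitoyltransferase, gave 2 and 7 UMIs.

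Of 19 regulators, 10 had enough UMIs, 1 was higher, beside 19.3% of all genes tested, and 2 were lower, beside 8.76%. The 1 higher gene, Pparg, reached the UMI minimum only through its Adipo KO counts, so this number is a description only. Pparg, the nuclear receptor of lipid storage and uptake genes, stood at 9.36 CPM from 5 UMIs in the control and 39.7 CPM from 140 UMIs in the Adipo KO library, a ratio of 4.24 (1.77 to 13.3). Nrip1, a corepressor of nuclear receptors, stood at 46.8 and 17.3 CPM (0.37, 0.23 to 0.61), and Nrf1, of mitochondrial biogenesis, at 33.7 and 22.4 CPM. Ppara and Ppargc1a, the classical activators of oxidation genes in liver and brown fat, gave 0 UMIs in both libraries in these cells.

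Of 7 genes outside oxidation that respond to PPAR receptors, 5 had enough UMIs, 3 were higher, beside 19.3% of all genes tested, and 0 were lower, beside 8.76%. Plin2, the lipid droplet coat protein, stood at 116 and 716 CPM (6.17, 4.79 to 8.07), and Cd36, the fatty acid receptor, at 431 and 1075 CPM (2.50, 2.18 to 2.86). Angptl4, an inhibitor of lipoprotein lipase, gave 0 and 58 UMIs, at least 2.93-fold higher against a floor of 3 UMIs. Angptl4 reached the UMI minimum only through its Adipo KO counts. The number of higher genes is therefore in part set by the minimum. In monocyte-like cells 3 of 14 tested regulators were higher (Pparg, Sirt3 and Lpin1), beside 7.4% of all genes tested, and 1 lower (Rxra), beside 2.26%, with Pparg at 15.8 and 33.6 CPM (2.12, 1.50 to 3.01), Plin2 at 71.9 and 155 CPM, and Cd36 at 65.9 and 208 CPM.

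Promoter windows from 250 bases before to 50 bases after the RefSeq start (GRCm38.p6) were found for 27 of the 33 genes and searched on both strands for the nuclear receptor half-site AGGTCA. It occurred in 4 of 27, beside 18.1% of 27025 genes with a window. The longer motifs DR1, a direct repeat of AGGTCA with 1 base between the copies that is bound by PPAR receptors, and TCAAGGTCA, bound by oestrogen-related receptors, each of which contains the half-site, occurred in 0 of 27. They occurred in 0.0481% and 0.466% of the 27025 genes, so 27 windows were too few to show an absence. The 4 genes with the half-site were Acadm, Echs1, Acadvl and Cpt1a. The first 3 were among the 8 of 30 genes higher by 1.5-fold in Adipo KO macrophage-like cells, beside 19.3% of all genes tested. The intervals of Echs1 and Acadvl included 1. Of the other higher genes, Acsl1, Slc25a20, Hadh and Acaa1a had windows without the half-site, and Acaa2 had no window. A link between half-site and ratio was not tested. A match is a description of letters in the window. The stretches that lie outside the annotated genes are shown for their place beside Acadm, Echs1 and Acadvl. They are given on the minus strand to which the genes belong, with the half-site or its reverse complement in capitals: chr3:153944875-153944893 for Acadm, chr7:140116487-140116516 for Echs1 and chr11:70015498-70015527 for Acadvl.
Acadm: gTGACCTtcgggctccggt
Echs1: accagcccgctcAGGTCAcgggtccacccc
Acadvl: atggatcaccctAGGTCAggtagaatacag

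RNA of brown adipocytes, which are rich in oxidation enzymes, was measured beside these results with 12 marker genes. In macrophage-like cells the list summed to 59.9 CPM in the control, with 4 genes at 0 (Ucp1, Adig, Elovl3 and Otop1), and to 29.7 CPM in the Adipo KO library, with Elovl3 at 0. It was highest in resident cells, at 135 and 64.9 CPM, and was at most 12.8 CPM in the other 6 classes. Without cells that held a UMI of the list, the macrophage-like summed ratio was 1.17 and the hydratase to thiolase ratio 1.35. A cluster of 57 control and 213 Adipo KO cells with medians of 990 and 914 UMIs, led by Dcn, Col3a1, Sparc and Col1a1, was left unnamed. It held 10.8 CPM of 6 fibroblast genes in the control and 911 CPM in the Adipo KO library, and with it added to the macrophage-like class the summed ratio was 1.21 and the hydratase to thiolase ratio 1.52. Control B cell-like cells held 19098 CPM of 5 erythroid genes against 63.8 CPM in the Adipo KO library, and the part of this in their sum of oxidation genes was not tested.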

How the data were processed

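Per the labels and file headers, the authors aligned reads to mm10 and counted UMIs with Cell Ranger 4.0.0, and deposited raw counts per gene and barcode without normalization, and Seurat is named in the submitters' processing notes. Depth was 11327187 UMIs in the control and 12028844 in the Adipo KO library, before filters. A barcode counted as a cell when it had 200 or more genes and no more than 10% of UMIs from mitochondrial genes. Libraries were normalized with SCTransform (sctransform 0.4.2), integrated by anchors and clustered in Seurat 5.3.0 under R 4.3.3, on 1999 variable features without the 33 genes, with 20 components and a resolution of 1. A cluster took a class or subset name at a mean marker z score of 0.5 or more, when 3 or more markers were found in 10% or more of its cells and 1 or more stood among its 10 leading genes, and these limits were set after seeing the data. The matrix cluster scored 0.04 for the macrophage list, with 7 of its markers detected, and was counted as macrophage-like through its subset list (3.23). The unnamed cluster of 270 cells scored 0.62 for the macrophage list but had none of its markers among the leading genes. Scrublet in Scanpy 1.11.5 called 8 barcodes in each library (0.351% and 0.397%), under 0.5%, and doublets therefore stayed in the data. Ratios of summed UMIs and intervals at 95% were computed with SciPy 1.17.1 and tested on simulated data. All 33 genes are named, with levels for those with at least 100 UMIs in macrophage-like cells. Genes of the other lists are named when past 1.5-fold there, and Cpt1b, Ppara and Ppargc1a, and the list genes in monocyte-like cells, were named after their values were seen. The genes and lists were chosen with earlier results of these data known. UMIs from the 3′ end carry no length term, so levels were compared within genes only. The labels give an age of 16 weeks, and the study's text a younger one.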

Additional observations from a re-analysis of the deposited data

Results flagged for a closer look

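For 2 genes, the ratio of Adipo KO to control CPM was past 1.5-fold in opposite directions in different cells. With 1 library per condition the difference between the ratios was not tested. Acsl4 had a ratio of 1.74 in matrix macrophage-like cells and of 1.74 in Ly6C-low monocyte-like cells, against 0.574 in Ly6C-high monocyte-like cells. Acsl4 UMIs numbered 8 in control and 69 in Adipo KO matrix cells, 35 and 48 in Ly6C-low cells, and 60 and 15 in Ly6C-high cells. Acot7 had a ratio of 2.02 in dendritic cell-like cells and 2.65 in T cell-like cells, against 0.580 in intermediate monocyte-like cells. Its UMIs numbered 13 and 37, 29 and 64, and 38 and 12.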

How the results depend on the processing

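The summed ratio of macrophage-like cells stayed above 1 in 18 of 18 alternatives (1.10 to 1.32). It was 1.10 with the median of all genes set to 1, 1.32 with the study's 2% mitochondrial limit and 1.30 with both libraries at the same mix of clusters. The count of genes past 1.5-fold there (9) was 4, 5 and 14 under these settings, 19 at a fold of 5/4, 2 at a fold of 2, 1 with cells thinned, 4 without lipid-associated and 14 without resident cells. Thinning, which left 1 gene with 50 UMIs, moved the carnitine ratio to 1.17, the dehydrogenases to 1.02, the electron transfer flavoprotein to 1.86 and the auxiliary enzymes to 0.885, and the 2% limit moved the carnitine ratio to 1.15. The hydratase to thiolase ratio moved by less than its interval (1.27 to 1.72). Acsl1 was reversed at the 2% limit (0.842) and without resident cells (0.818), and Echs1 (0.870) and Hadh (0.665) when thinned. The cause was not tested. The monocyte-like summed ratio (1.02) was 0.947 with the median of all genes set to 1 and 0.965 at the 2% limit. Its count past 1.5-fold (1) was 2 with minimums of 20 or 1 UMIs or thinned cells, 5 at a fold of 5/4, 6 with the mean of single cells and 3 without the top 5% of cells. It was 0 at a fold of 2, with a mean of 20 CPM, with mitochondrial limits of 5% and 2%, with the stricter minimum of detected genes and at a resolution of 2. Macrophage-like over monocyte-like in the control (1.11, 10 genes) was 1.22 with the median of all genes set to 1 and 1.00 at the 2% limit, with 4 genes at a fold of 2, 3 thinned and 5 at the 2% limit. In the Adipo KO library (11 genes) 20 passed a fold of 5/4, 3 a fold of 2 and 2 when thinned. Settings without lipid-associated or resident cells, with the unnamed cluster, with a mean of 20 CPM and without cells holding adipocyte RNA were chosen after seeing the data. No macrophage-like cell lacked a subset, so leaving such cells out was not run. No paired analysis was possible because each condition had 1 library, and leaving out a replicate was not possible for the same reason.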
